A study of Homo sapiens with 26 samples.

Results

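PTHLH, TNC, TMEM158 and IL6R were followed in every library of an mRNA-seq study of esophageal squamous cell carcinoma (ESCC) lines. These are 4 of 26485 gene symbols. They were selected on their normalised values in 3 comparisons, which fell under both knockdowns in KYSE180 and rose under BRDT overexpression in KYSE150, so their changes in those 3 comparisons are given as a description, without a test. The comparisons in TE6 and the TP63 knockdown in KYSE150 were not among those 3 and were tested. The 4 genes were picked with earlier results of these data known, so these tests cannot be taken as independent of the choice. Of the 40 genes that met the same rule at the thresholds used here, ordered by the smallest of their 3 changes, PTHLH was number 3, TMEM158 number 5, TNC number 6 and IL6R number 8.

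KYSE180, TE6 and KYSE150 are established human ESCC cell lines. The study transfected KYSE180 and TE6 with a control siRNA (siCont), an siRNA against the bromodomain gene BRDT (siBRDT) or one against the squamous transcription factor gene TP63 (siTP63), and KYSE150 with siCont or siTP63. KYSE150 cells that received a BRDT plasmid (BRDT-OE) were set against KYSE150 cells with an empty control vector. Plasmids for these libraries were given by electroporation and siRNAs by lipofection. Knockdown cells were collected 48 h after transfection, whereas the time for BRDT-OE was not given in the sources used here. All cells of a line were a transiently transfected population of that 1 line, grown with serum and antibiotics, and no animal or patient tissue was used. KYSE150 was grown in another medium, with less serum, than KYSE180 and TE6. KYSE180 had 3 siCont and 3 siBRDT libraries in one experiment, and 2 siCont and 2 siTP63 libraries in another. TE6 had 2 libraries each of siCont, siBRDT and siTP63, KYSE150 had 2 siCont and 2 siTP63 libraries, and the overexpression experiment had 3 control and 3 BRDT-OE libraries. Nothing stated that replicates were separate cultures, so p-values measure the spread between these libraries, which may be technical.

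BRDT is a bromodomain protein of the BET family that binds acetylated histones and is normally made in male germ cells, and p63 is the transcription factor that maintains squamous epithelium. PTHLH encodes parathyroid hormone-related protein (PTHrP), a secreted ligand of the PTH1R receptor that is known from squamous tumours as a cause of high blood calcium. IL6R encodes the receptor chain that binds interleukin 6 and hands it to the shared signalling chain IL6ST. TNC encodes tenascin-C, an extracellular matrix glycoprotein of remodelling tissue that integrins bind, and TMEM158 encodes a membrane protein first described as a gene induced by activated RAS.

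The siRNAs of the study are shown because the knockdowns rest on them and because an siRNA can also act on transcripts that pair with its seed. Which of them were used for the mRNA-seq libraries was not given in the sources used here. Each is written as its target strand, with capitals for the 7 bases that pair with bases 2 to 8 of the guide strand.
Non-targeting siRNA 5: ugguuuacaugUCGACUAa
BRDT siRNA 2: caaaucaacuuCAGUAUCu
BRDT siRNA 3: gaaaauggauaACCAAGAa
BRDT siRNA 4: guagagagaacACUAAUGa
BRDT siRNA 18: gagauaaacuuGGGCGAGu
TP63 siRNA 5: caucaugucugGACUAUUu
TP63 siRNA 8: cgacagucuugUACAAUUu
Matched to GENCODE release 44 on hg38, the 4 BRDT siRNAs lay in coding exons 2, 7, 8 and 10 of BRDT (chr1:91962840-91962858, chr1:91978170-91978188, chr1:91979663-91979681 and chr1:91981008-91981026). TP63 siRNA 5 lay in coding exon 13 (chr3:189890812-189890830) and was present in 5 of 14 TP63 transcripts, and TP63 siRNA 8 lay in coding exon 7 (chr3:189867849-189867867) in 12 of 14. None of the 7 sequences had a full match in a transcript of PTHLH, TNC, TMEM158 or IL6R, and the longest run shared with one of them was 9 bases. The capitalised seed match occurred in the canonical transcript of IL6R 1 time for BRDT siRNA 2, in that of TNC 1 time each for BRDT siRNAs 3 and 18, and in that of TMEM158 2 times for BRDT siRNA 18. PTHLH held none of these matches, and neither TP63 siRNA had one in any of the 4 genes.

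On hg38 (GENCODE release 44), PTHLH lay at chr12:27958084-27972733 on the minus strand, TNC at chr9:115019575-115118207 on the minus strand, TMEM158 at chr3:45224466-45226287 on the minus strand and IL6R at chr1:154405193-154469450 on the plus strand. Their canonical transcripts had 6, 28, 1 and 10 exons. DELEC1, on the opposite strand, overlapped all 28 exons of TNC, IL6R-AS1 overlapped 1 exon of IL6R, and an unnamed long non-coding RNA overlapped 3 exons of PTHLH. Whether reads were counted by strand was not given in the sources used here, so reads of these antisense genes could not be told apart from those of the sense gene. TMEM158 had no overlapping gene in the annotation.

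The 250 bases before a RefSeq start of each gene (GRCh38.p14) are shown because the 4 genes were chosen for moving together. The PTHLH window lies inside the GENCODE span of the gene given above, and those of TNC and IL6R run partly into theirs. Other starts of these genes were not searched, so the matches below hold for the windows shown only. They run 5′ to 3′ on the strand of the gene, and capitals mark each match to a GC box (GGGCGG) or to a half-site of the p53 family, searched on both strands.
PTHLH (chr12:27969977-27970226, - strand): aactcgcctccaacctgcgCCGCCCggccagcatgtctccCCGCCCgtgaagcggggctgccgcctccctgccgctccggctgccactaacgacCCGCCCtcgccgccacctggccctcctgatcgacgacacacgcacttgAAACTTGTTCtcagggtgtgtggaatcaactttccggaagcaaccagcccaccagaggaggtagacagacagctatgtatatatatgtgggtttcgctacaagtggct
TNC (chr9:115118158-115118407, - strand): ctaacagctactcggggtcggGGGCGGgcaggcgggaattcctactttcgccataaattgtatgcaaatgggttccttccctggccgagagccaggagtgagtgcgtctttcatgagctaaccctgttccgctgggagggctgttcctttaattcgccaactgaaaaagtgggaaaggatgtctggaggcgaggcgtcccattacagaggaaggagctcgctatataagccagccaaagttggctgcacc
TMEM158 (chr3:45226288-45226537, - strand): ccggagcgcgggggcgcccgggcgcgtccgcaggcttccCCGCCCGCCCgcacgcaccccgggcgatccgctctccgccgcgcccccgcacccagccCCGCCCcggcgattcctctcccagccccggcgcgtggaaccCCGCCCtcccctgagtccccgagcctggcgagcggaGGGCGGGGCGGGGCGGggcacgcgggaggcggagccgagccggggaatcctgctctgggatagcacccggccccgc
IL6R (chr1:154405093-154405342, + strand): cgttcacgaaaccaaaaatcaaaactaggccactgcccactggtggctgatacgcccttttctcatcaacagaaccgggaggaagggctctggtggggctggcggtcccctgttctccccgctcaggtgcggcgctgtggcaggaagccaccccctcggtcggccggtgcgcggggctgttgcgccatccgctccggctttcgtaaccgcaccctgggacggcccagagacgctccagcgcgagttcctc
PTHLH held 1 half-site, 108 to 99 bases before the start, and 3 GC boxes. TNC held 1 GC box and TMEM158 held 7, some of which overlapped each other, while the IL6R window held no match to either motif. Among 35116 RefSeq promoter windows of the same length, 5.57% held a half-site and 42.6% a GC box. The full p53 family site was in 0.242%, the AP-1 site (TGANTCA) in 6.57% and the exact TATA box letters TATAAA in 10.7% of all windows. No match to these 3 was found in the 4 windows. Variants of the TATA box were not searched, and the printed PTHLH and TNC windows both hold a tatata run near their end. A match describes letters only, and the absence of one says nothing about binding. The share of G and C was 61.6% for PTHLH, 54.8% for TNC, 82.4% for TMEM158 and 65.2% for IL6R, against a median of 58.0% over all windows.

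Depth was 7582089 to 19372441 reads per library, and a gene with 0 reads could still have had up to 3, which is 0.155 to 0.396 RPM, the reads of a gene scaled to equal library totals. These limits cover counting error only, since reads carried no molecular identifiers. All 8 squamous epithelium markers were detected in every library, their sum ran from 791 to 9250.1 RPM, and the sum of 6 fibroblast markers from 3.80 to 120.0 RPM. The squamous markers were KRT5, KRT14, KRT6A, TP63, SOX2, DSG3, PKP1 and SFN. TP63 is the target of siTP63, so its fall under siTP63 is the knockdown itself, and KRT14 and KRT6A also met the rule. The 6 leukocyte markers summed to 6.46 to 111 RPM, nearly all of it CD68 (6.20 to 110.4 RPM), whereas PTPRC, which defines leukocytes, was at most 0.357 RPM and at 0 in 16 of 26 libraries. TE6 siBRDT replicate 1 stood apart: 20995 genes had a read in it against 16458 to 17569 in the other TE6 libraries, and it correlated with replicate 2 at 0.976, whereas the other groups' replicates correlated at 0.989 to 0.994 (Pearson, log2 reads, across genes). No BRDT dose series was made, so a graded response of the 4 genes to BRDT was not measured.

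In order to place the 4 genes, their levels were first compared across the 11 groups in RPM. In these bulk libraries, fewer cells with a transcript and less RNA per cell cannot be told apart. PTHLH had its highest mean in siCont cells of the KYSE180 BRDT experiment, at 304 ± 14.6 RPM (SD, n = 3), and its lowest under siTP63 in KYSE150, at 9.22 ± 1.23 RPM (SD, n = 2). TNC was also highest in those KYSE180 siCont libraries, at 109.8 ± 15.7 RPM (SD, n = 3), but in TE6 it was near the limit of detection, with 4 and 11 reads under siCont, 13 and 0 under siBRDT, and 0 and 0 under siTP63. IL6R ran from 117 ± 4.75 RPM (SD, n = 3) in the same siCont libraries to 5.86 ± 0.857 RPM (SD, n = 2) under siTP63 in TE6. TMEM158 was highest in KYSE150 siCont cells at 20.6 ± 1.96 RPM (SD, n = 2), with libraries that overlapped those of KYSE180 siCont in the BRDT experiment (20.5 ± 1.79 RPM, SD, n = 3), and lowest under siTP63 in TE6, at 1.78 ± 0.472 RPM (SD, n = 2).

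**Figure D1:**
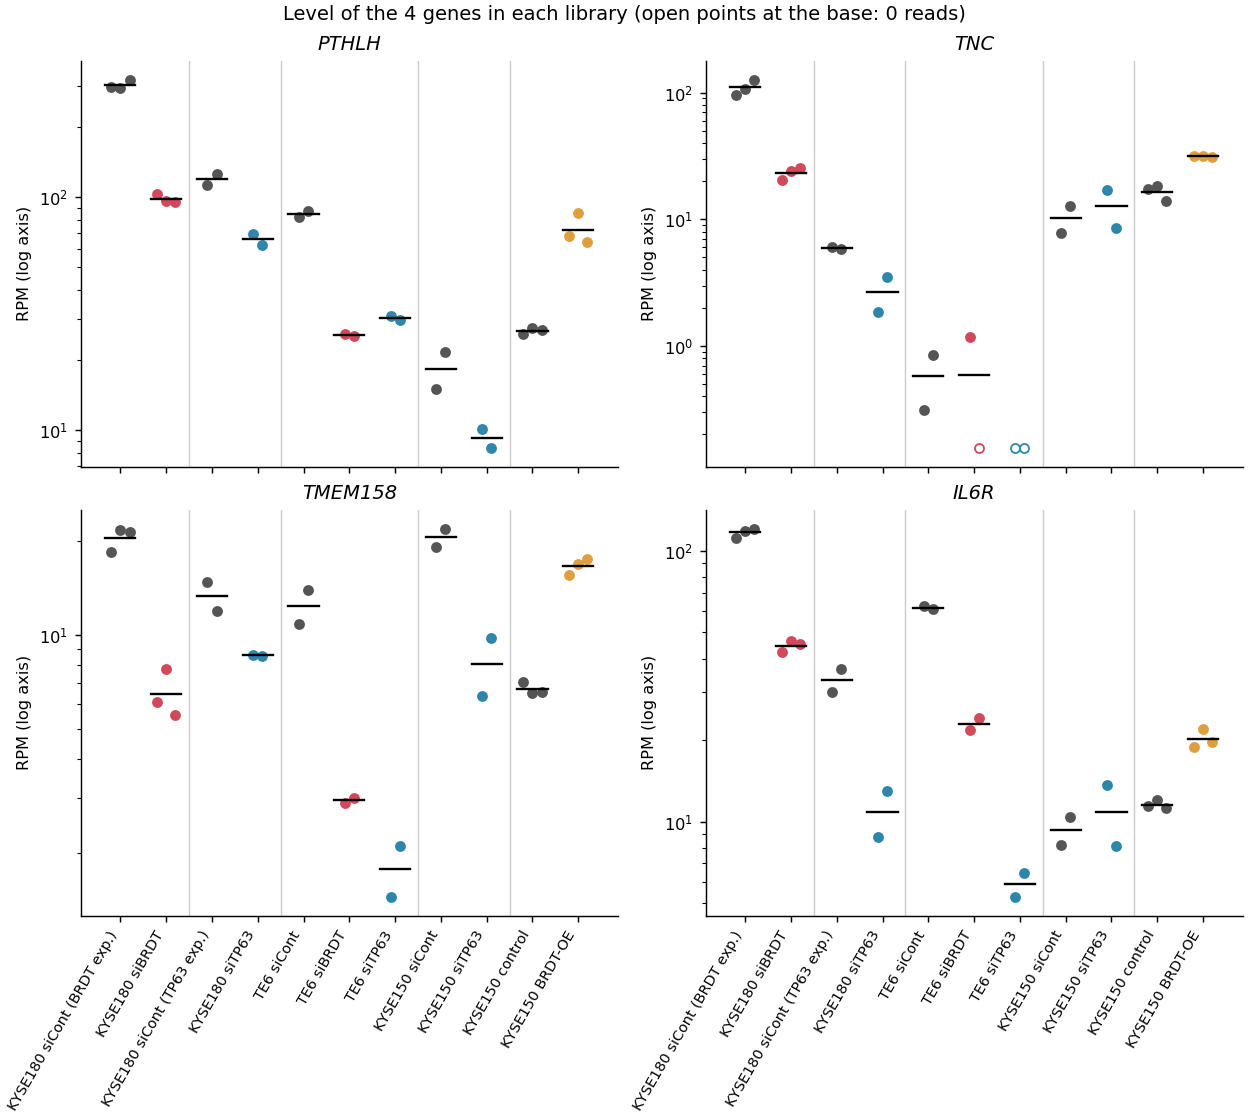
Level of each gene in RPM (log axis) in the 26 libraries of the 11 groups; points are libraries, black lines are group means, and open points at the base stand for 0 reads. Libraries of KYSE180 siCont in the BRDT experiment lie above all others for PTHLH, TNC and IL6R, and TNC is near 0 in the 6 TE6 libraries.

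In the order of PTHLH levels, libraries of TE6 siCont (84.9 RPM), KYSE150 BRDT-OE (72.7 RPM) and KYSE180 siTP63 (66.0 RPM) overlapped from neighbour to neighbour, and all other neighbours were separate. For TNC, libraries of KYSE150 control (16.5 RPM), siTP63 (12.9 RPM) and siCont (10.3 RPM) overlapped with their neighbours, as did those of TE6 siBRDT and siCont. IL6R overlapped between TE6 siBRDT (23.0 RPM) and KYSE150 BRDT-OE (20.2 RPM), and among the low groups from KYSE150 control (11.5 RPM) to KYSE150 siCont (9.32 RPM). The TMEM158 order had its overlaps between KYSE180 siCont in the TP63 experiment (13.4 RPM) and TE6 siCont (12.4 RPM), and among the groups from KYSE180 siTP63 (8.61 RPM) to KYSE180 siBRDT (6.48 RPM).

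Per length of the canonical transcript, PTHLH was the most abundant of the 4 in the siCont cells of each line. In KYSE180 siCont of the BRDT experiment the levels were 193 ± 9.27 RPKM for PTHLH, 20.3 ± 0.823 for IL6R, 12.9 ± 1.84 for TNC and 11.3 ± 0.981 for TMEM158 (SD, n = 3). TE6 siCont had 53.8 ± 2.03 RPKM of PTHLH, 10.7 ± 0.199 of IL6R, 6.83 ± 1.22 of TMEM158 and 0.0678 ± 0.0443 of TNC (SD, n = 2). KYSE150 siCont had 11.7 ± 2.92 RPKM of PTHLH, 11.3 ± 1.08 of TMEM158, 1.62 ± 0.271 of IL6R and 1.21 ± 0.412 of TNC (SD, n = 2), and there the libraries of PTHLH and TMEM158 overlapped. RPKM here is RPM per 1000 bases of that transcript.

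The siCont libraries of the 2 KYSE180 experiments differed from each other. TNC was 18.6-fold higher in the BRDT experiment than in the TP63 experiment (5.91 ± 0.122 RPM, SD, n = 2), a larger difference than in all but 0.0526% of 13311 genes. IL6R was 3.50-fold, PTHLH 2.54-fold and TMEM158 1.53-fold higher, and TP63 itself was 5.37-fold higher (892 ± 49.4 RPM, SD, n = 3, against 166 ± 24.4, SD, n = 2). Both KYSE150 control sets also differed, with TMEM158 at 6.72 ± 0.307 RPM (SD, n = 3) in the vector controls and 20.6 RPM in siCont. The vector controls were electroporated with plasmid, whereas the siCont cells received siRNA by lipofection. Experiments were normalised separately and no labels tie their dates or passages, so experiment and control level cannot be told apart, and changes were computed within an experiment only.

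The targeted genes moved as labelled. BRDT values (reads divided by a size factor) in KYSE180 were 1017, 1043 and 1136 with siCont and 132, 147 and 198 with siBRDT. In the overexpression experiment they were 10.2 ± 5.07 (SD, n = 3) in control and 15871, 15927 and 17542 in BRDT-OE. TP63 went from 2573 and 3035 to 794 and 925 under siTP63 in KYSE180. siBRDT left TP63 at 66.9% of siCont in KYSE180, siTP63 left BRDT there at 96.6%, and BRDT-OE left TP63 at 92.6% of control.

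The values that chose the 4 genes were as follows. Under siBRDT in KYSE180, PTHLH went from 3308, 3289.5 and 3529.6 to 1080.4, 1011 and 993, or 30.5% of siCont. TNC, from 1067, 1193 and 1394 to 215, 251 and 261, was left at 19.9%. TMEM158 values of 206, 243 and 235 became 63.9, 82.2 and 57.5 (29.8%), and IL6R values of 1243, 1314 and 1331 became 444, 489 and 469 (36.0%). No library of siBRDT reached the lowest siCont library for any of the 4. Their log2 fold changes were -1.71 ± 0.063 (SE) for PTHLH, -2.32 ± 0.10 for TNC, -1.75 ± 0.14 for TMEM158 and -1.47 ± 0.069 for IL6R. At the thresholds used throughout, 15.8% of 13589 genes tested were called down in that comparison. Of the 8 squamous markers 6 were called down and none up, and their part in these values was not tested.

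Under siTP63 in KYSE180, PTHLH went from 1963 and 2091 to 844 and 713, or 38.4% of siCont. TNC values of 104 and 96.5 became 22.2 and 40.5, which left 31.3%. TMEM158 went from 256 and 198 to 104 and 98.5 (44.6%) and IL6R from 521 and 607 to 106 and 149 (22.6%). IL6R thus had the deepest mean fall of the 4 here, at -2.15 ± 0.18 (log2, SE), whereas TNC had it under siBRDT. TMEM158 had the smallest, at -1.15 ± 0.19 (log2, SE), a value that ran from -1.33 to -0.72 over the alternatives and was smallest with the trend on transcript length and GC content removed. Calls in this comparison covered 25.7% of 13924 genes downward and 23.6% upward. These were 3577 and 3292 genes, which became 2556 and 4644 with rescaled upper quartiles (a shift of 0.22 in the median of all genes). At the same time all 17 tested interferon-response genes were called up, with a median log2 fold change of 2.54. Of the 8 squamous markers, which include TP63 itself, 7 were called down. The endothelium list went from 2.17 to 3.54 RPM under siCont to 11.8 to 12.8 RPM under siTP63. The fibroblast list went from 36.1 to 39.7 to 68.7 to 80.0 RPM, and the leukocyte list from 29.2 to 31.8 to 13.3 to 15.5 RPM. RPM and normalised values differed here, since BRDT went from 48.5 to 67.4 RPM with its normalised value at 96.6% of siCont. On normalised values 0 of 2 tested fibroblast markers were called (median log2 fold change 0.21). Of 2 tested endothelium markers 1 was called up and 1 down, and the 1 tested leukocyte marker was called down. No endothelium marker other than CDH5 and VWF exceeded 1.45 RPM in any library. The part of these signs in the values of the 4 genes was not tested.

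Under BRDT-OE in KYSE150, PTHLH rose from 386, 406 and 410.0 to 1103, 1406 and 1042, or 296% of control. TMEM158 rose from 105, 96.2 and 99.8 to 254, 277 and 285 (271%), TNC from 258, 269 and 212 to 515, 519 and 506 (209%), and IL6R from 169, 177 and 169.9 to 306, 360.3 and 318 (191%). Each BRDT-OE library lay above each control library for all 4. The log2 fold changes were 1.55 ± 0.11 (SE) for PTHLH, 1.43 ± 0.11 for TMEM158, 1.06 ± 0.11 for TNC and 0.92 ± 0.10 for IL6R, in a comparison where 10.5% of 12765 genes tested were called up. BRDT itself was at 1011 ± 61.8 RPM (SD, n = 3) in these BRDT-OE cells and at 95.9 ± 6.41 RPM (SD, n = 3) in KYSE180 siCont of the BRDT experiment, so the overexpressed level lay above that of the line that carries BRDT. Rescaling the libraries to equal upper quartiles moved the calls over all genes from 2043 down and 1343 up to 2430 down and 966 up, and the 4 genes kept their direction. Of 16 tested interferon-response genes 11 were called down and none up here (median -1.29), and their part in the rise was not tested.

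**Figure D2:**
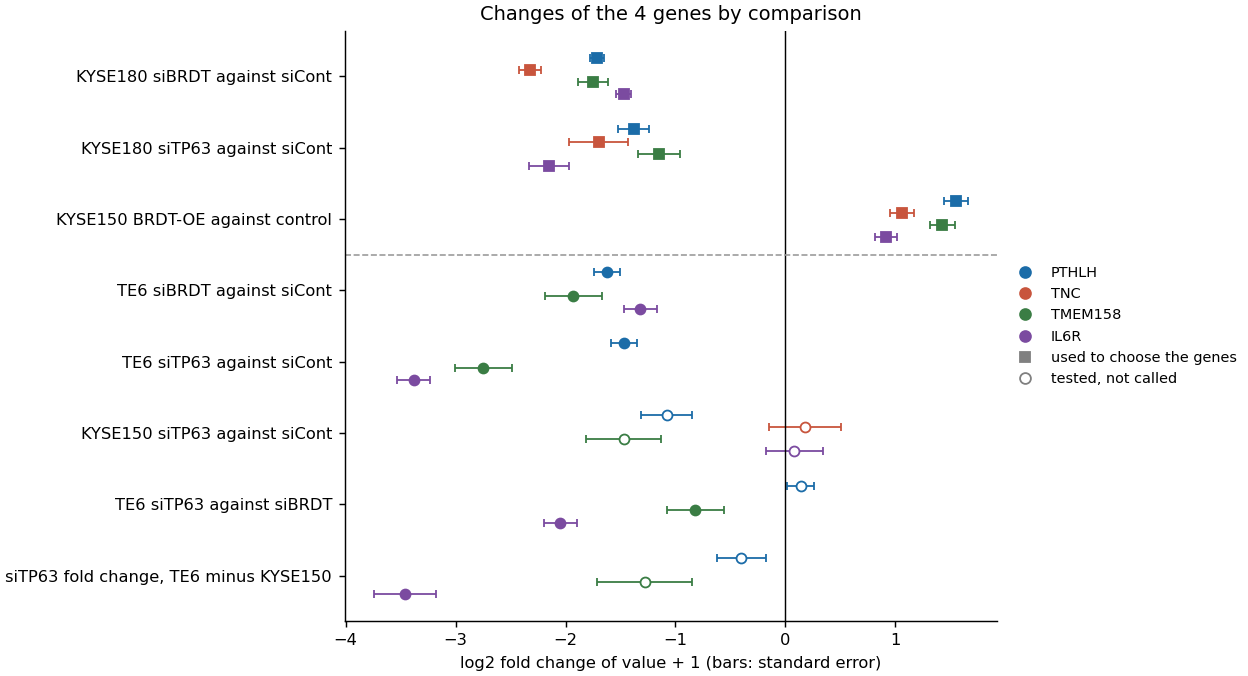
Log2 fold change of value + 1 of each gene in the 8 comparisons, with bars for the standard error. Squares above the dashed line are the 3 comparisons that chose the genes, filled circles passed the test and open circles did not, and TNC has no circle where its values in TE6 were too low to test.

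TE6 was the line that the rule had not used and that carries BRDT. In order to see whether the 4 genes fell there as well, siBRDT was compared with siCont. PTHLH fell from 935 and 980.2 to 309 and 314, leaving 32.5%. TMEM158 fell from 123 and 158 to 34.5 and 37.0 (25.5%), and IL6R from 708 and 685 to 259 and 297 (40.0%). No siBRDT library overlapped a siCont library for these 3. The log2 fold changes were -1.62 ± 0.12 (SE) for PTHLH, -1.93 ± 0.26 for TMEM158 and -1.32 ± 0.15 for IL6R, with adjusted p of 1.4e-06, 1.1e-04 and 3.1e-05 (limma, Benjamini-Hochberg over 13333 genes). So 3 of the 3 measurable members were called down, where 18.1% of all genes tested were. Of the other genes that met the rule and ranked above IL6R, UCN2 (0.32), MMP1 (0.88) and AREG (0.25) were not called down, and CPA4 was too low to test. How far the pick of the members shaped this count was not tested.

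TNC could not be assessed in TE6. Its mean value was below the minimum of 10, and its 4 and 11 reads under siCont overlapped the 13 and 0 reads under siBRDT. Without the minimum, its log2 fold change under siBRDT was -0.83 with an adjusted p of 0.6 (limma), and under siTP63 it was -2.78 with an adjusted p of 0.089. All 13 siBRDT reads came from the library with reads in the most genes, and 3 reads there equal 0.272 RPM. A change of TNC was thus not detectable at this depth in this line.

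BRDT and TP63 were lower in the same siBRDT libraries. BRDT fell from 241 and 242 to 55.0 and 46.6, a log2 fold change of -2.23 ± 0.16 (SE, limma adjusted p = 1.7e-06). TP63 fell from 2596 and 2785 to 1282 and 1147, or 45.1% of siCont (log2 fold change -1.15 ± 0.12, SE, limma adjusted p = 2.0e-05). Without siBRDT replicate 1, the library that stood apart, the members' changes were -1.60 for PTHLH, -1.88 for TMEM158 and -1.22 for IL6R and all 3 were still called. Rescaling the libraries to equal upper quartiles moved the median of all genes by 0.28 (log2) and the calls from 2419 down and 2074 up to 586 down and 2712 up, and the 3 members stayed called down.

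siTP63 in TE6 was compared with the same siCont libraries. TP63 went to 133 and 112, or 4.57% of siCont (log2 fold change -4.45 ± 0.12, SE, limma adjusted p = 1.3e-10), and BRDT stood at 233 and 220.5, or 93.9% (log2 fold change -0.091, 95% interval -0.45 to 0.27, limma adjusted p = 0.67). PTHLH fell to 354 and 334, which left 36.0% (log2 fold change -1.47 ± 0.12, SE). TMEM158 fell to 16.6 and 23.7 (14.3%, log2 fold change -2.75 ± 0.26, SE), and IL6R to 60.4 and 72.5 (9.54%, log2 fold change -3.38 ± 0.15, SE). Adjusted p were 1.1e-06 for PTHLH, 4.4e-06 for TMEM158 and 1.4e-08 for IL6R (limma, Benjamini-Hochberg). Again 3 of 3 measurable members were called down, where 20.6% of all genes tested were. Of the other genes ranked above IL6R, MMP1 (-4.24) and AREG (-0.68) were called down here and UCN2 (-0.76) was not. Both TE6 comparisons share their siCont libraries, so a high or low siCont library would move both.

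**Figure D3:**
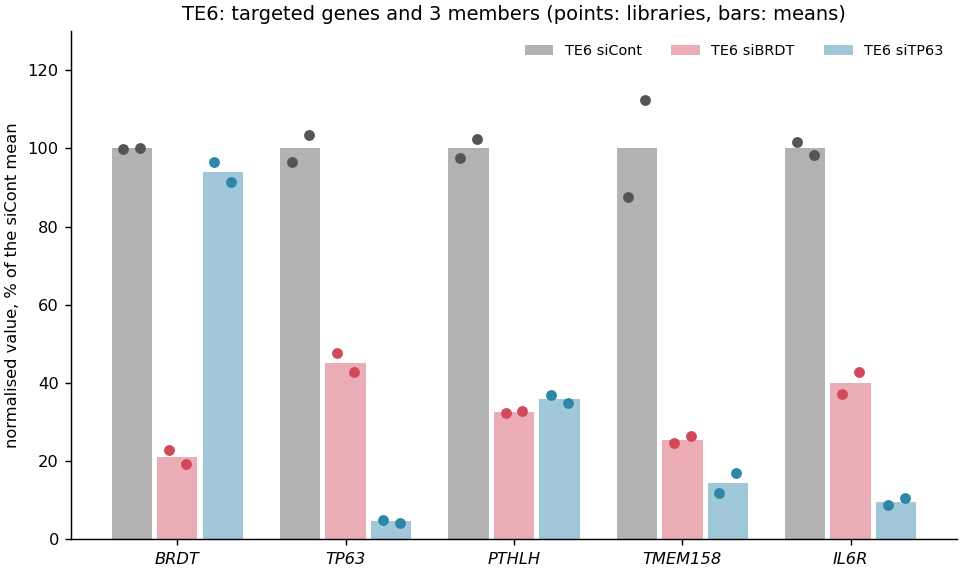
Normalised value in the 6 TE6 libraries as a percentage of the siCont mean, for the targeted genes BRDT and TP63 and for PTHLH, TMEM158 and IL6R; points are libraries and bars are means. BRDT is low under siBRDT only, TP63 is 45.1% under siBRDT and 4.57% under siTP63, and IL6R (40.0% and 9.54%) and TMEM158 (25.5% and 14.3%) are lower under siTP63 while PTHLH is at 32.5% and 36.0%.

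The knockdowns were then set against each other within TE6. IL6R was lower under siTP63 than under siBRDT, with a log2 difference of -2.05 ± 0.15 (SE, limma adjusted p = 1.2e-06), in a comparison where 14.3% of genes were called lower (1902 lower and 1882 higher, or 1815 and 567 with rescaled upper quartiles). TMEM158 was also lower, at -0.82 ± 0.26 (SE, limma adjusted p = 0.026), a call that was lost under 6 of 13 alternatives, with adjusted p of 0.013 to 0.18 over them. Leaving out siTP63 replicate 1 took it to -0.57 (limma adjusted p = 0.18), and leaving out either siCont library also ended the call. PTHLH differed by 0.14 ± 0.12 (SE, limma adjusted p = 0.35), with a 95% interval of -0.11 to 0.40. TP63 was lower under siTP63 than under siBRDT, at -3.30 ± 0.12 (log2, SE, limma adjusted p = 4.3e-09), and BRDT was higher by 2.14 ± 0.16 (SE, limma adjusted p = 1.6e-06).

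Other signs moved with these TE6 groups. The endothelium list stood at 4.52 to 5.90, 3.98 to 7.34 and 8.14 to 9.76 RPM under siCont, siBRDT and siTP63. Only 1 endothelium marker was tested, and it was called up under siTP63 and not called under siBRDT. Of 18 interferon-response genes, 17 were called up under siBRDT (median log2 fold change 1.99) and 13 under siTP63 (median 1.63). Of all genes tested, 15.6% and 18.3% were called up. The 8 squamous markers, TP63 among them, summed to 5994 to 6077 RPM under siCont, 2681 to 3103 under siBRDT and 1209.9 to 1279.7 under siTP63. Of these markers 5 and 8 were called down and 1 and 0 called up, where 18.1% and 20.6% of all genes were called down. The leukocyte list, which was nearly all CD68, summed to 35.6 to 36.9, 19.8 to 21.0 and 6.46 to 9.35 RPM, and the fibroblast list to 27.9 to 31.6, 24.5 to 28.7 and 27.3 to 31.3 RPM. The part of these signs in the fall of PTHLH, TMEM158 and IL6R was not tested.

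KYSE150 siTP63 was the other comparison that the rule had not used. PTHLH went from 259.9 and 320.4 to 135 and 137, and TMEM158 from 329.6 and 325 to 85.6 and 161, with no overlap between groups. TNC stood at 134 and 188 under siCont and 230.2 and 141 under siTP63, and IL6R at 141 and 154 against 183 and 133, and both overlapped. The log2 differences were -1.08 ± 0.23 (SE) for PTHLH, -1.47 ± 0.34 for TMEM158, 0.18 ± 0.33 for TNC and 0.080 ± 0.26 for IL6R. None passed, with adjusted p of 0.13, 0.14, 0.82 and 0.91 (limma, Benjamini-Hochberg). The 95% intervals were -1.65 to -0.51 for PTHLH, -2.31 to -0.63 for TMEM158, -0.64 to 1.01 for TNC and -0.57 to 0.73 for IL6R.

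This comparison called nothing, since limma called 0 of 12335 genes (0.00% in either direction), and 2194 had an unadjusted p under 0.05. edgeR on the recovered reads also called 0, while DESeq2 called 259 down and 202 up, TMEM158 among the former (log2 fold change -1.42, DESeq2 adjusted p = 0.013). Over the alternatives, adjusted p ran from 1.4e-08 to 0.15 for TMEM158 and from 9.5e-07 to 0.47 for PTHLH, the lowest with a crossed pairing chosen after the data were seen. TMEM158 was called as well without siTP63 replicate 2 (-1.92, limma adjusted p = 0.0056), and PTHLH and TMEM158 both with the length and GC trend removed. TNC changed sign without siCont replicate 1 (-0.064) and without siTP63 replicate 1 (-0.17), and IL6R without siTP63 replicate 1 (-0.15). TP63 went from 695 and 729 to 170.4 and 114, a log2 fold change of -2.34 ± 0.26 (SE, limma adjusted p = 0.082). BRDT had 41 and 7 reads with siCont and 0 and 8 with siTP63, so this line had little BRDT to begin with. The 8 squamous markers, TP63 among them, summed to 1844 to 2221 RPM with siCont and 791 to 805 RPM with siTP63. The endothelium list summed to 0.875 to 1.73 RPM with siCont and 5.68 to 11.5 RPM with siTP63, and its 1 tested marker was not called. The interferon-response list had a median log2 difference of 0.91 with 0 of 15 called. Their part in these values was not tested.

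The effect of siTP63 was also compared between TE6 and KYSE150 directly. IL6R fell more in TE6, by a difference of -3.46 ± 0.28 in log2 fold change (SE, 95% interval -4.08 to -2.83, limma adjusted p = 6.5e-04), in a contrast that called 2.20% of 11645 genes in that direction and 1.66% in the other (256 and 193 genes, or 76 and 29 with rescaled upper quartiles). The difference was -0.40 ± 0.22 for PTHLH (SE, 95% interval -0.89 to 0.099, limma adjusted p = 0.3) and -1.28 ± 0.43 for TMEM158 (SE, 95% interval -2.24 to -0.32, limma adjusted p = 0.12), neither of them called. The fall of TP63 differed too, by -2.10 ± 0.28 (SE, limma adjusted p = 0.0038). The length and GC correction (-1.80, limma adjusted p = 0.014) and leaving out KYSE150 siTP63 replicate 1 (-1.73, limma adjusted p = 0.033) brought TMEM158 past the threshold, and over all alternatives its adjusted p ran from 0.014 to 0.38.

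In order to see what surrounded the 4 genes, the partners of each were counted in TE6 from lists of the pathways. Without TE6 siBRDT replicate 1, the siBRDT counts that follow became 8 down and 0 up of 17 for the IL-6 family list, 3 and 0 of 18 for the PTHrP list, 6 and 0 of 11 for the tenascin list and 8 and 0 of 22 for the RAS-MAPK list. With rescaled upper quartiles they became 4 and 1, 2 and 0, 5 and 0, and 3 and 0, and the median of the PTHrP list turned from -0.055 to 0.22. The IL-6 family list held 18 tested genes, of which 5 were called down and 1 up under siBRDT, and 9 and 2 under siTP63. Of all genes, 18.1% and 20.6% were called down and 15.6% and 18.3% up. The 1 gene called up under siBRDT was the ligand IL6, which passed the minimum of 10 only through siBRDT. The siTP63 count became 5 and 1 without siCont replicate 2, 6 and 0 without siTP63 replicate 1, 6 and 1 with rescaled upper quartiles and 6 and 0 with the length and GC trend removed. In KYSE180 siTP63 this list ran the other way, with 0 called down and 12 up of 17, beside 25.7% and 23.6% of all genes. Its median log2 fold change was 0.68, with IL6ST at 1.15, ADAM17 at 1.36 and OSMR at 0.94, while IL6R was lower there. Under siBRDT in KYSE180 the IL-6 family list had 4 called down and 2 up of 18 (median -0.14), beside 15.8% and 14.5% of all genes. OSMR, the receptor chain for oncostatin M, went from a mean of 1209 to 483 under siBRDT (n = 2 each, log2 fold change -1.32 ± 0.12, SE, limma adjusted p = 7.0e-06). PTPN11, a phosphatase recruited to IL6ST, fell from 783 ± 50.2 to 208 ± 19.5 under siTP63 (SD, n = 2 per group, with a log2 fold change of -1.91, limma adjusted p = 2.8e-07). PIAS3, an inhibitor of STAT3, rose by 0.50 there (limma adjusted p = 0.0072). The PIAS3 call was lost without siCont replicate 1 (0.47), without siTP63 replicate 1 (0.44) and with the length and GC trend removed (0.39, under the fold limit). IL6ST itself had a value of -0.86 under siBRDT (limma adjusted p = 0.055), which became -1.59 and called without siBRDT replicate 1, and it fell by 1.34 on the log2 scale under siTP63 (limma adjusted p = 0.0056). That call was lost without siCont replicate 2 (-1.22), without siTP63 replicate 2 (-1.25) and with DESeq2 (-1.33, DESeq2 adjusted p = 0.057).

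ADAM17, the protease that sheds IL6R from the cell surface, fell under siBRDT by 1.13 (log2, limma adjusted p = 1.1e-04) and under siTP63 by 0.62 (limma adjusted p = 0.0053). The siTP63 call was lost without siCont replicate 2 (-0.61) and without siTP63 replicate 1 (-0.61). It was also lost with rescaled upper quartiles (-0.54, limma adjusted p = 0.062) and with the length and GC trend removed (-0.37, limma adjusted p = 0.061). SOCS3, a feedback inhibitor that STAT3 induces, was at -0.18 under siBRDT (limma adjusted p = 0.47) and fell by 1.20 under siTP63 (limma adjusted p = 2.8e-04). STAT3 passed in neither, at -0.36 (limma adjusted p = 0.04, under the fold limit of 0.5) and -0.18 (limma adjusted p = 0.28), but was called under siBRDT without siBRDT replicate 2 (-0.55, limma adjusted p = 8.0e-06). The ligand IL6 was at 4.35 ± 0.0627 under siCont, 27.1 ± 2.86 under siBRDT and 6.35 ± 1.48 under siTP63 (SD, n = 2 per group). It passed the minimum of 10 only through siBRDT, the group where it was high, and fell below it without siBRDT replicate 1. Its log2 difference under siBRDT was 2.39, with an adjusted p of 0.0051 when no minimum was set (limma). In KYSE150, IL6 stood at 241 ± 138 under siCont and 2259 ± 114 under siTP63 (SD, n = 2 each, log2 difference 3.35, limma adjusted p = 0.085), which was called under 9 of 12 alternatives.

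The PTHrP list had 18 tested genes, with 5 called down and 0 up under siBRDT and 2 down and 2 up under siTP63 in TE6, beside shares of all genes of 18.1% and 15.6%, and of 20.6% and 18.3%. Under siTP63 the number called down was 4 when siCont replicate 1, siTP63 replicate 2 or either siBRDT library was left out. PTH1R, the receptor of PTHrP, was too low to test in TE6. FURIN, a protease that processes prohormones, fell under siBRDT from 1011 ± 26.3 to 663 ± 110.2 (SD, n = 2 per group, with a log2 fold change of -0.62, limma adjusted p = 0.0014), a call lost without siBRDT replicate 1 (-0.45) and with rescaled upper quartiles (-0.34, limma adjusted p = 0.21). It was at 0.37 under siTP63 (limma adjusted p = 0.024, under the fold limit) and was higher under siTP63 than under siBRDT by 0.99 (limma adjusted p = 6.4e-05). PRKAR2A, a regulatory subunit of protein kinase A, fell by 1.72 under siBRDT (log2, limma adjusted p = 3.6e-05). GLI2, a hedgehog transcription factor, fell from 206 ± 4.81 to 32.5 ± 8.44 under siTP63 (SD, n = 2 per group, with a log2 fold change of -2.65, limma adjusted p = 4.2e-06). GNAS, the stimulatory G protein downstream of PTH1R, was at -0.050 under siBRDT (limma adjusted p = 0.74) and rose by 0.68 under siTP63 (limma adjusted p = 3.6e-04), which became 0.39, under the fold limit, with the length and GC trend removed.

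Of 11 tested tenascins and tenascin receptors, 6 were called down and 0 up under siBRDT, and 4 down and 3 up under siTP63 in TE6, where 18.1% and 20.6% of all genes were called down and 15.6% and 18.3% up. In KYSE180 siBRDT 8 were called down and 0 up of 14 (median -0.68), beside 15.8% and 14.5% of all genes. In KYSE180 siTP63 1 was called down and 10 up of 13 (median 0.94), beside 25.7% and 23.6% of all genes. There ITGB1 was at 1.25, ITGAV at 0.92 and ITGB6 at 1.32. ITGB1, the shared beta chain of many matrix integrins, fell from 2867 ± 262 to 703 ± 322 under siBRDT (SD, n = 2 per group, with a log2 fold change of -2.10, limma adjusted p = 1.8e-05). ITGA2, a collagen-binding integrin chain, fell from 605 ± 19.6 to 108 ± 13.2 under siTP63 (SD, n = 2 per group, with a log2 fold change of -2.49, limma adjusted p = 5.6e-07). SDC4, a cell surface heparan sulfate proteoglycan, rose by 1.03 under siTP63 (limma adjusted p = 3.1e-06) and was at -0.30 under siBRDT (limma adjusted p = 0.021, under the fold limit). ITGB6 passed in neither comparison (-0.42 and 0.58, limma adjusted p = 0.26 and 0.12), but was called under siTP63 with the length and GC trend removed (0.90, limma adjusted p = 0.023). ITGA9 and ITGAV were too low to test in TE6.

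The RAS-MAPK output list, chosen beside TMEM158, had 23 tested genes. Of these 9 were called down under siBRDT and 17 under siTP63 in TE6, and 0 up in either, compared with 18.1% and 20.6% of all genes called down. In KYSE180 siBRDT 8 were called down and 3 up of 23, beside 15.8% and 14.5% of all genes. In KYSE180 siTP63 8 were called down and 5 up of 22, beside 25.7% and 23.6%, with DUSP4 at 2.05 and SPRY2 at 1.36. The shares called up in KYSE180 were near those of all genes. The list's median log2 fold change in TE6 was -0.42 and -1.13, where the median of all genes was -0.039 and -0.011. With rescaled upper quartiles 15 were called down under siTP63. PHLDA1 fell from 1628 ± 12.4 to 159 ± 0.871 under siTP63 (SD, n = 2 per group, with a log2 fold change of -3.35, limma adjusted p = 8.7e-10). EGR1, an immediate early transcription factor, fell from 164 ± 12.8 to 50.8 ± 5.97 under siBRDT (SD, n = 2 per group, with a log2 fold change of -1.67, limma adjusted p = 5.9e-05).

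DUSP6, a phosphatase that ERK signalling induces, fell by 1.06 under siBRDT (limma adjusted p = 0.0011, and 0.052 with rescaled upper quartiles) and by 2.30 under siTP63 (limma adjusted p = 2.3e-06). The ETS factor ETV4 was at 0.0080 under siBRDT (limma adjusted p = 0.97) and fell by 1.58 under siTP63 (limma adjusted p = 1.4e-06). The AP-1 member FOSL1 was at -0.13 under siBRDT (limma adjusted p = 0.78) and fell by 2.08 under siTP63 (limma adjusted p = 2.3e-04). In KYSE150 siTP63, where nothing was called, the RAS-MAPK list had a median of -0.0098 and the IL-6 family list one of 0.37.

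**Figure D4:**
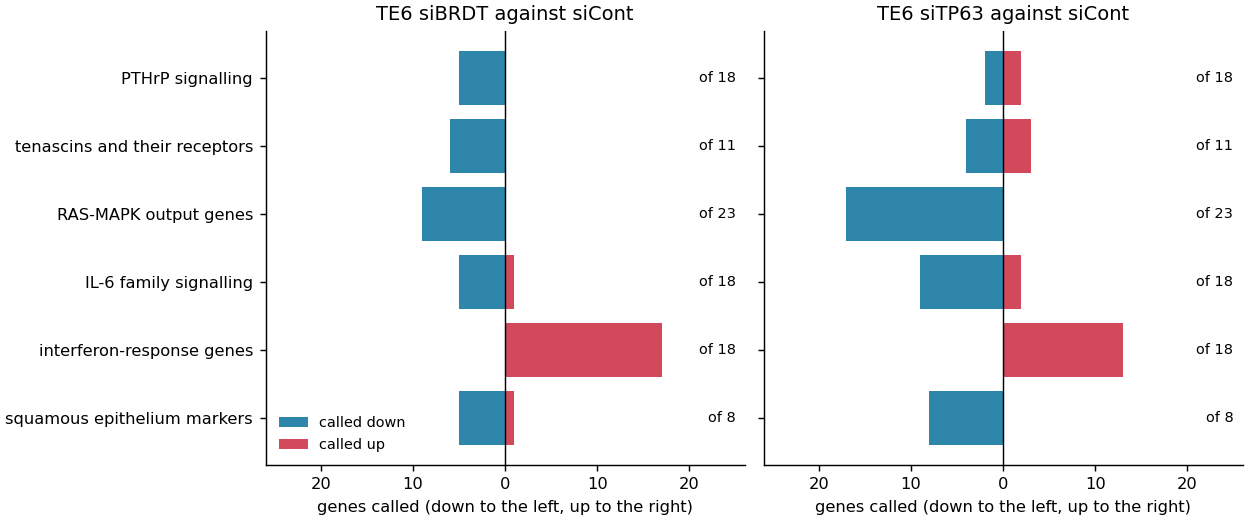
Number of genes of each list called down (left of 0) and up (right of 0) in the TE6 comparisons of siBRDT and siTP63 with siCont, with the number tested at the right edge. RAS-MAPK output genes have 9 and 17 called down and 0 up, and interferon-response genes have 17 and 13 called up and 0 down. Of all genes, 18.1% and 20.6% were called down and 15.6% and 18.3% up.

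The 4 genes were then compared with the other genes that met the rule. In KYSE180, 397 genes were called down under both knockdowns, 324 of them were tested under BRDT-OE in KYSE150, and 40 (12.3%) were called up there and 70 down. Over all genes tested under BRDT-OE, 10.5% were called up, and 2043 of 12765 were called down, so the share called up was near that of all genes. The 15 with the largest smallest change were UCN2, MMP1, PTHLH, CPA4, TMEM158, TNC, AREG, IL6R, RPS10, LOC100128361, MEF2BNB, FST, PHLDA2, SEC61A1 and COL7A1. UCN2, a neuropeptide of the corticotropin-releasing factor family, had -2.89, -2.52 and 2.51 under siBRDT, siTP63 and BRDT-OE. MMP1, an interstitial collagenase, had -1.60, -2.45 and 2.29. The growth factor AREG had -1.44, -1.68 and 1.02, and the anchoring-fibril collagen COL7A1 -1.18, -1.83 and 0.71. Just inside the limit of 0.5 lay ZNF37BP (0.535) and CMTM3 (0.513), and just outside it EBNA1BP2 (0.493) and CORO1C (0.492), by the smallest of their 3 changes.

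Of the 40 genes, 37 were tested in TE6, with 12 called down and 2 up under siBRDT (32.4% down, against 18.1% of all genes) and 23 down and 3 up under siTP63 (62.2% down, against 20.6%). Without the 4 genes these counts were 9 down and 2 up of 34, and 20 down and 3 up of 34. Under siTP63 in KYSE150 none of the 40 was called, 17 had an unadjusted p under 0.05 and the median log2 difference was -0.55, beside -0.0077 over all genes. PTHLH, TMEM158 and IL6R were among 11 of the 37 that were called down in both TE6 comparisons, and 9.95% of all genes tested in TE6 were. The other 8 were BNC1, ITGA2, DSC3, KRT6A, CAV1, AFAP1L1, LRRC8C and KRT14, named after their values were seen. MMP1 was called under siTP63 only (-4.24, limma adjusted p = 3.2e-05, against 0.88 with adjusted p = 0.19 under siBRDT), and so was COL7A1 (-1.95, limma adjusted p = 8.3e-08).

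**Figure D5:**
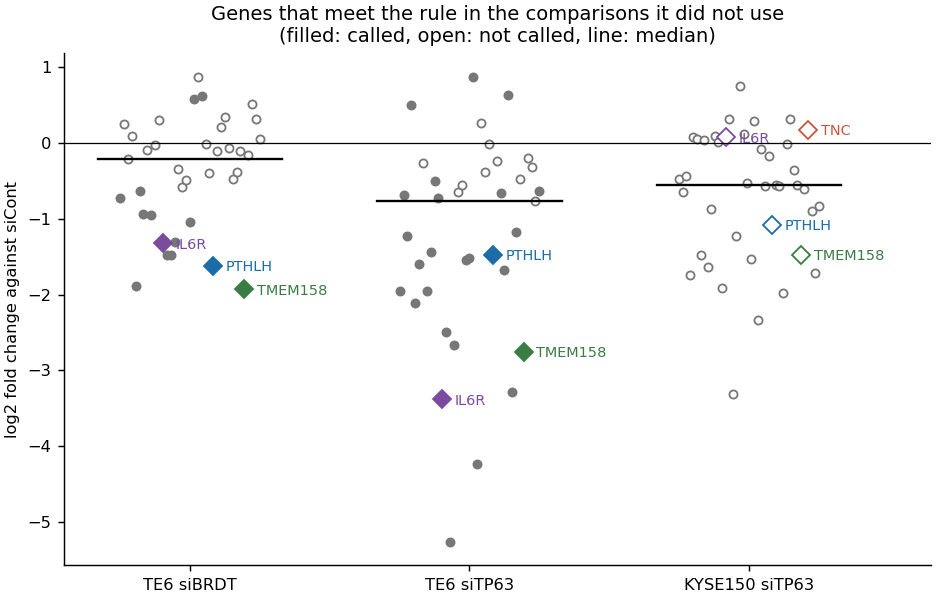
Log2 fold change against siCont of the genes that meet the rule, in the 3 comparisons that the rule did not use; grey circles are other genes, diamonds are PTHLH, TNC, TMEM158 and IL6R, filled symbols were called, and lines are medians (-0.21, -0.76 and -0.55). IL6R is at -3.38 under siTP63 in TE6 and at 0.080 in KYSE150.

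Finally, the genes whose pattern over the 26 libraries was most like each of the 4 were listed, by Pearson correlation of log2 values after subtraction of the control mean of the same experiment. Libraries of a group share their shift, so these values describe the data and have no p. PTHLH was closest to PTDSS1 (0.95), DEGS1 (0.94) and ATP1B3 (0.94), and TNC to genes that included ARNTL2 (0.89) and DSC3 (0.88). TMEM158 was closest to ENDOD1 (0.95), TYMS (0.95) and ITGA6 (0.94), and IL6R to TGFB1 (0.96), DDX46 (0.93) and MTERF1 (0.93), among 8307 or 8308 genes. Between the 4 themselves the correlation ran from 0.75 (PTHLH with TNC, and TNC with TMEM158) to 0.94 (PTHLH with TMEM158), which the choice of the genes favours. All correlations with TNC include the TE6 libraries, where it had 0 to 13 reads and could not be assessed.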

How the data were processed

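Gene expression was measured by mRNA-seq in 26 libraries. Per the labels' processing notes, tools named are STAR 2.6.0, HTSeq 0.11.2 and DESeq2 1.24.0 with build hg38; the annotation, strand and counting options were not given in the sources used here. The deposited tables hold a normalised signal: for each library the authors scaled its gene counts with 1 size factor, and they did so separately in 5 experiments. All values came out as whole reads (100% within 0.01 read), which gave depth and the count tests.

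limma 3.58.1 (R 4.3.3; lmFit, eBayes with trend) was fitted to log2(value + 1) within each experiment, over all genes with a mean value of at least 10. Fold changes on this scale understate those of low genes. Calls needed an adjusted p (Benjamini-Hochberg) under 0.05 and a log2 change of at least 0.5. The 3 TE6 groups shared 1 fit, and the contrast of TE6 with KYSE150 was fitted over both experiments. Means are given ± SD and fold changes ± SE, and intervals are at 95%, not adjusted for the number of genes. RPM used all recovered reads.

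Alternatives were a pseudocount of 0.1, no minimum, rescaling to equal upper quartiles, a replicate block, fits of the recovered reads with edgeR 4.0.16 or DESeq2 1.42.0, removal of length and GC trends (splines, 4 degrees of freedom), no fold limit, and leaving out each library. A crossed pairing and the p53 family half-site were added after the data were seen. Reads and fits were tested on simulated data.

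The 4 genes, the gene lists and the rule for named genes were chosen with earlier results of these data known. Named genes are the 4, BRDT, TP63, fixed partners of each list, the called list gene with the largest rise and fall per comparison (mean value of at least 100, no overlap of libraries), the first 15 genes that meet the rule and the 3 most alike genes, of which 1 for TNC is not reported here. Transcripts and positions are from GENCODE release 44 (canonical transcripts found for 87.4% of symbols), promoters from RefSeq, and siRNAs from the study's methods. A p53 family full site allowed 2 mismatches outside its core. Figures were drawn with matplotlib.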

Additional observations from a re-analysis of the deposited data

Results flagged for a closer look

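IL6R is listed because the effect of siTP63 on it differed between the lines. It went from 708 and 685 to 60.4 and 72.5 in TE6, and stood at 141 and 154 under siCont and 183 and 133 under siTP63 in KYSE150. The difference in log2 fold change was -3.46 (limma adjusted p = 6.5e-04), and it kept its direction and its call in all 17 alternatives run, with values of -3.68 to -3.23 and adjusted p of 2.9e-21 to 0.011. Both TE6 siTP63 libraries lay below both siCont libraries, while those of KYSE150 overlapped. Mean TP63 values went from 2690.4 to 123 in TE6 and from 712 to 142 in KYSE150, and IL6R levels under siCont were 61.7 RPM in TE6 and 9.32 RPM in KYSE150. The lines were also grown in different media, with less serum for KYSE150. The part of these differences in the IL6R result was not tested.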

How the results depend on the processing

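In TE6 against siCont, PTHLH, TMEM158 and IL6R stayed called down in all 78 alternative values, and in the 3 comparisons of the rule the 4 genes kept their direction in all 148. Replicate numbers did not pair the libraries (deviations of same-numbered libraries correlated at -0.70 in KYSE150 siTP63 and at -0.084 to 0.18 elsewhere). With the replicate block PTHLH, TMEM158 and IL6R kept their calls, while the KYSE150 siTP63 comparison went from 0 to 48 genes down and 89 up, and the line contrast from 256 and 193 to 45 and 16. A crossed pairing in KYSE150 gave 1774 down and 1626 up, with PTHLH at -1.08 (limma adjusted p = 9.5e-07) and TMEM158 at -1.47 (limma adjusted p = 1.4e-08). Depth limits TNC in TE6 to 0 to 13 reads. It was tested there only with no minimum, at -0.83 under siBRDT (limma adjusted p = 0.6) and -2.78 under siTP63 (limma adjusted p = 0.089).

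With rescaled upper quartiles, called genes numbered 586 down under TE6 siBRDT, 1605 down under TE6 siTP63, 567 higher under TE6 siTP63 than siBRDT (1815 lower), 76 down and 29 up in the line contrast, and 21 met the rule (289 with no fold limit, 40 as reported). PTHLH between the TE6 knockdowns turned to -0.051. Under TE6 siBRDT, GNAS turned to 0.23, FOSL1 to 0.14 and SOCS3 to 0.094. With length and GC trends removed, TE6 siBRDT had 1544 down and 1159 up, KYSE150 siTP63 692 and 466, and the line contrast 684 and 586. That setting gave PTHLH -1.08 (limma adjusted p = 0.035), TMEM158 -1.48 (0.023) and IL6R -0.015 in KYSE150, TMEM158 -0.69 (0.058) between the TE6 knockdowns and -1.80 (0.014) in the line contrast, BRDT 0.16 under TE6 siTP63 and ETV4 -0.28 under TE6 siBRDT. DESeq2 gave 259 down and 202 up and TMEM158 -1.42 (0.013) in KYSE150, TMEM158 -0.89 (0.1) between the TE6 knockdowns, and 491 and 496 in the line contrast. Without a minimum, KYSE150 had 18 down and 27 up, and TMEM158 between the TE6 knockdowns an adjusted p of 0.068 at -0.82.

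Leaving out 1 library gave, in KYSE150 siTP63, 77 to 177 down and 108 to 182 up, TNC -0.17 to 0.53, TMEM158 -1.92 to -1.02 and IL6R -0.15 to 0.31. It gave 1483 to 2707 down under TE6 siBRDT (fewest without siCont replicate 2), 1116 to 2288 higher and TMEM158 -1.06 to -0.57 between the TE6 knockdowns, and 42 to 1428 down, 16 to 1584 up and TMEM158 -1.73 to -0.83 in the line contrast (most without KYSE150 siTP63 replicate 2). Under TE6 siBRDT, GNAS ran from -0.25 to 0.14, ETV4 from -0.090 to 0.11 (also -0.053), FOSL1 from -0.33 to 0.072 and SOCS3 from -0.44 to 0.075. The causes of these shifts were not tested.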
